A study of Mus musculus with 9 samples.

Results

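Krt7, Krt8, Krt18, Krt19, Cldn4, Cldn18 and Sfn are 4 keratins, 2 claudins and a 14-3-3 protein that are used to follow the transitional epithelial state of injured alveoli. They were taken by symbol from the deposited gene table, where all 7 were present among 32671 genes and all 7 were among the 20794 that passed the filter on low counts. Wild-type C57BL/6 mice in 3 groups gave 3 poly(A) RNA libraries of whole lung per group, all from day 21. LNP mice were given bleomycin, which breaks DNA and brings on fibrosis of the lung, and also inhaled lipid nanoparticles (LNP) named mCas9/gSting@DOPS. Bleomycin mice had the drug alone, and control mice had saline. Particles lacking the guide were not analysed here, so the particle and its cargo cannot be told apart. The labels do not say that the 3 libraries of a group are separate animals, and p-values measure only the spread between these libraries.

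Keratins are intermediate filament proteins that assemble as pairs of 1 type II chain and 1 type I chain. Krt7 and Krt8 are type II chains and Krt18 and Krt19 are type I chains of simple epithelia, and in lung they are found in airway cells, alveolar cells and mesothelium. Claudins are the membrane proteins that set the permeability of tight junctions, and Cldn18 is a main claudin of the alveolus. Sfn (14-3-3 sigma) is an epithelial adaptor protein induced by p53. In mouse lung after injury, alveolar type 2 cells on their way to type 1 cells pass through a state marked by high Krt8, in which Cldn4 and Sfn are also switched on.

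The RefSeq promoter table (GRCm38.p6) held windows from 250 bases before to 50 after a gene start for 6 of the 7 genes, and Krt19 was not matched. Both strands were searched for 6 motifs. Cldn4, the gene of the 7 with the largest fold change in both comparisons with control lung, is shown with capitals on its 2 matches to the AP-1 motif TGANTCA, which do not overlap and begin 240 and 158 bases before the start. At least 1 such match was held by 7.81% of all 32851 windows. Krt8 and Krt18 are shown because the pair lies side by side on chromosome 15, and capitals mark a stretch in Krt8 that matches the TATA box TATAAA once on each strand, with the matches overlapping, at the RefSeq start itself. That motif was held by 13.6% of windows. Cldn18 is shown at the start used by its main transcript, with capitals on a match to CAAGTG, a motif of the lung factor NKX2-1, that begins 98 bases before the start and was also held by 13.6% of windows. The GC box GGGCGG, held by 35.7% of windows, matched 4 times in the Krt7 window and 2 times in the Cldn4 window. The TEAD motif GGAATG, held by 14.7% of windows, matched in none of these 7 windows, and the p53 half-site, held by 8.36%, matched once, in the window of the other Cldn18 start. A match is a run of letters and says nothing on whether a factor was bound.
Cldn4, chr5:134946885-134947184, minus strand: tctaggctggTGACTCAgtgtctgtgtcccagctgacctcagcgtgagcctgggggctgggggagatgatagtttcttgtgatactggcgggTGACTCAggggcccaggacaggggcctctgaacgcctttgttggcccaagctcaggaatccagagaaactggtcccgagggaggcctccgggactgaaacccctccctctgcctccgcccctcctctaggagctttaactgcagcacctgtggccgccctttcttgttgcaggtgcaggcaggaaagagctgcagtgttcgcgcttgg
Krt8, chr15:102004293-102004592, minus strand: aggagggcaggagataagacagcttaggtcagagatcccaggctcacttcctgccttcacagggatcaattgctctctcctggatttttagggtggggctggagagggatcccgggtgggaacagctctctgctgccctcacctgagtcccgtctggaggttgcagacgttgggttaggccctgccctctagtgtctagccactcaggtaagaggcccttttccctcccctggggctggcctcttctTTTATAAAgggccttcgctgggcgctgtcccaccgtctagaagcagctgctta
Krt18, chr15:102027966-102028265, plus strand: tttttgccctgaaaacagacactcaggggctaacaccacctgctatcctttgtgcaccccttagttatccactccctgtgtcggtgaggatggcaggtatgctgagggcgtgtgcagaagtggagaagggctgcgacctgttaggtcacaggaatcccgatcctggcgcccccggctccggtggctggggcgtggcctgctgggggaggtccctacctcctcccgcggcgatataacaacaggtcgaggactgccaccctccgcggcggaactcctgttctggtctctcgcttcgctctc
Cldn18, chr9:99710014-99710313, minus strand: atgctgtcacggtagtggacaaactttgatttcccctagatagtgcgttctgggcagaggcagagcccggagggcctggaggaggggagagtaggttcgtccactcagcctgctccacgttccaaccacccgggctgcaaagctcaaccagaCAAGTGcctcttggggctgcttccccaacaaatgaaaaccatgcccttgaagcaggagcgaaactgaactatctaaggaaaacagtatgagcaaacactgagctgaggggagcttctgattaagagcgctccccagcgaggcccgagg

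Library totals of the deposited gene counts ran from 56047830 to 69404903, of which the 7 genes took 0.303% to 0.333% of the counts in LNP, 0.406% to 0.476% in bleomycin and 0.174% to 0.226% in control libraries. LNP replicate 3 stood apart. Its 9 skeletal muscle markers summed to 9198 CPM (counts scaled to library size), against 8.45 to 57.2 CPM in the other 8 libraries. Its 10 squamous epithelium markers summed to 2322 CPM, against 239 to 590 CPM elsewhere. Ecm1 alone made up most of that sum in the other 8 libraries (211 to 562 CPM), and had 499 CPM in LNP replicate 3. Its 10 alveolar type 2 markers summed to 7728 CPM, against 23880 and 19910 CPM in LNP replicates 1 and 2. Results are therefore also given without this library, and the part of the muscle and squamous RNA in them was not tested.

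**Figure D1:**
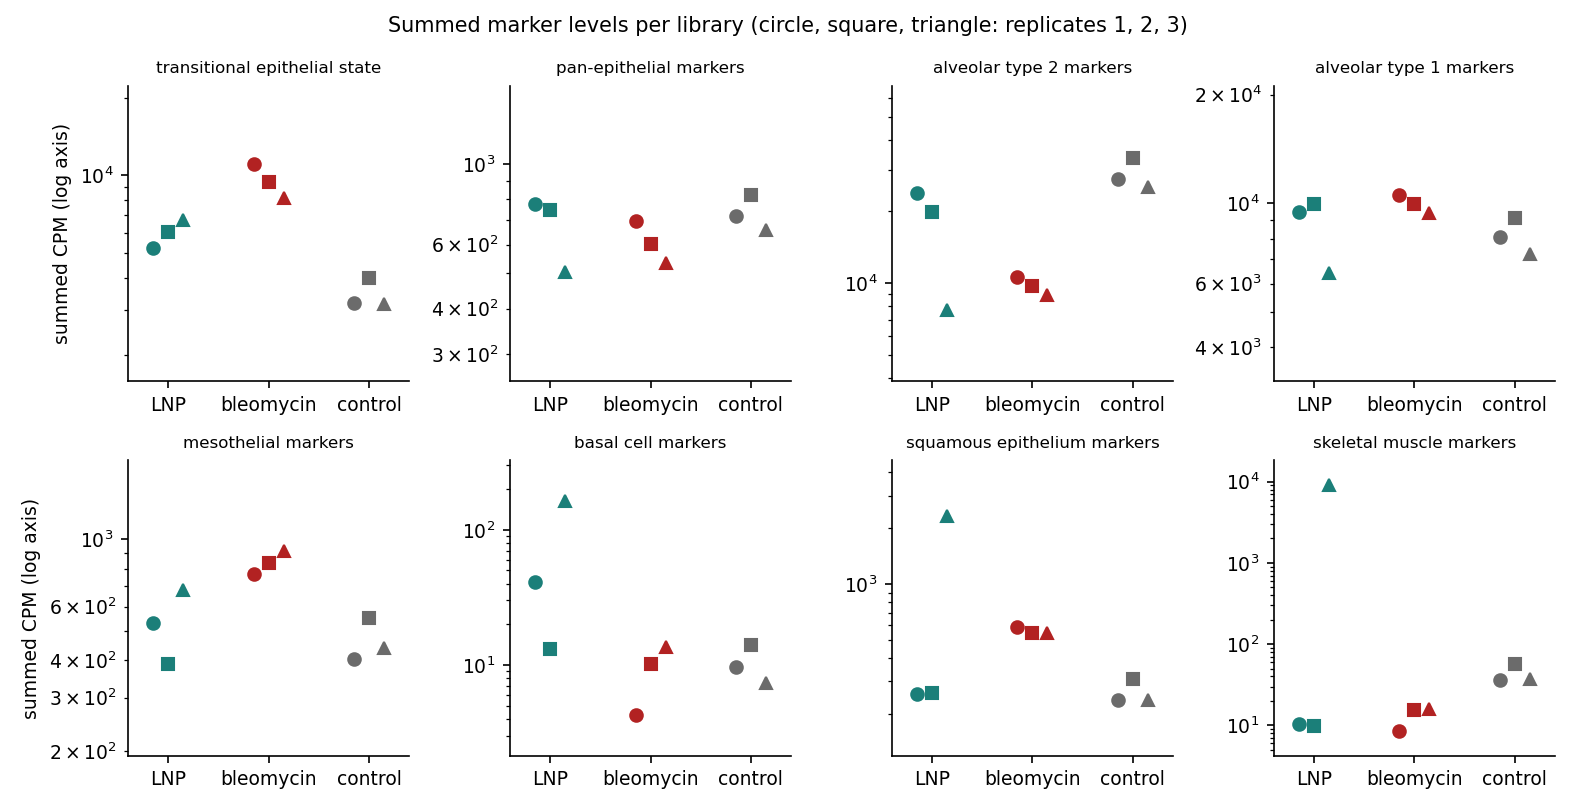
Summed CPM (log axis) of 8 marker lists in each library of the LNP, bleomycin and control groups, with a circle, square and triangle for replicates 1, 2 and 3. The triangle of the LNP group lies far above the others for skeletal muscle (9198 CPM) and squamous epithelium (2322 CPM) and below its own group for alveolar type 2 markers (7728 CPM).

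A list of 23 further genes of the transitional state was also followed. It was chosen with earlier results of these data known, so it is not an independent check of that state. After bleomycin 20 of the 23 rose and 0 fell, where 15.2% of all genes rose and 18.5% fell. The median log2 fold change of the 23 was 1.65, against -0.05 over all genes tested. Their summed level was 5205 to 6710 CPM in LNP, 8200 to 11110 CPM in bleomycin and 3173 to 4001 CPM in control libraries, with no overlap between the groups. Among the calls with the smallest p were Anxa1, a phospholipid-binding protein (log2 fold change 1.81, adjusted p = 8.82e-05), Tnfrsf12a, the TWEAK receptor (3.47, 1.90e-04), and Lgals3, a galectin (2.38, 2.76e-04), in edgeR's quasi-likelihood test. In bulk RNA of whole lung, more cells of a type and more RNA per cell cannot be told apart. Which cells made these mRNAs was not tested.

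Bleomycin lung held more of 6 of the 7 mRNAs than control lung, and LNP lung lay between the other groups for those 6. The rises after bleomycin were 12.0-fold for Cldn4, 8.19-fold for Sfn and 2.32-fold to 3.23-fold for the 4 keratins, and Cldn18 did not pass the test. Over all genes tested 15.2% rose and 18.5% fell in this comparison. In LNP against bleomycin lung 2 of the 7, Krt7 and Krt19, fell and 0 rose, where 1.87% of all genes fell and 4.28% rose. In LNP against control lung 5 of the 7 rose, Krt19 and Cldn18 being the exceptions, where 4.95% of all genes rose and 3.08% fell. The median log2 fold change of the 7 genes was 1.64 after bleomycin, beside -0.05 over all genes. It was -0.72 in LNP against bleomycin lung, beside 0.04 over all genes, and 0.80 in LNP against control lung, beside -0.0028. Both comparisons with bleomycin lung use the same bleomycin libraries, and a high bleomycin library raises one value and lowers the other.

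**Figure D2:**
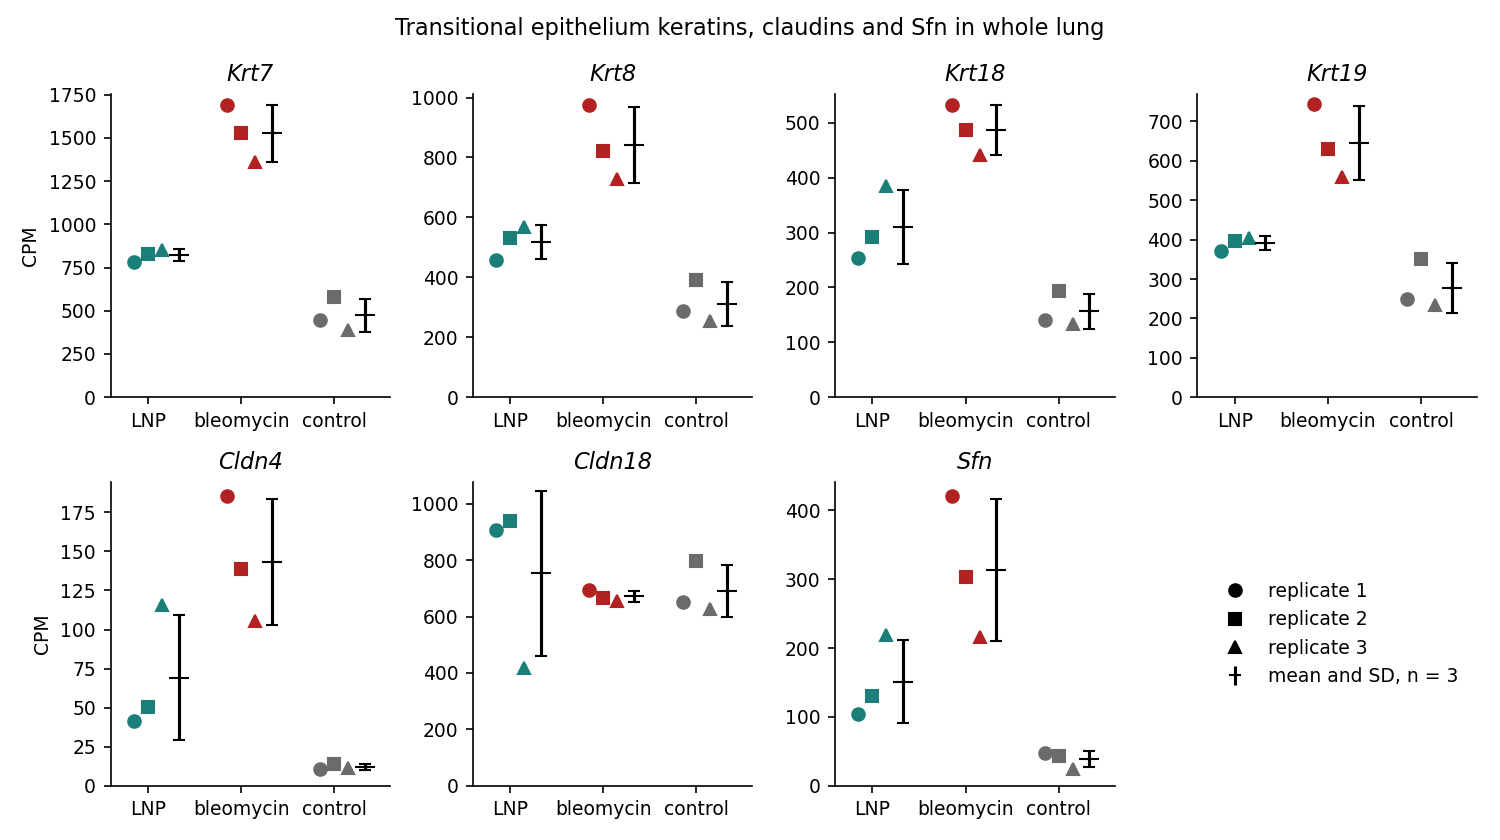
CPM of each gene in the 3 libraries of each group (symbols by replicate), with the mean and SD (n = 3) in black; each vertical axis starts at 0. For the 4 keratins the LNP points lie between the other groups with no overlap, whereas the LNP triangle of Cldn4 (115 CPM) and of Sfn (219 CPM) lies among the bleomycin points and that of Cldn18 (416 CPM) lies below every other library.

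**Figure D3:**
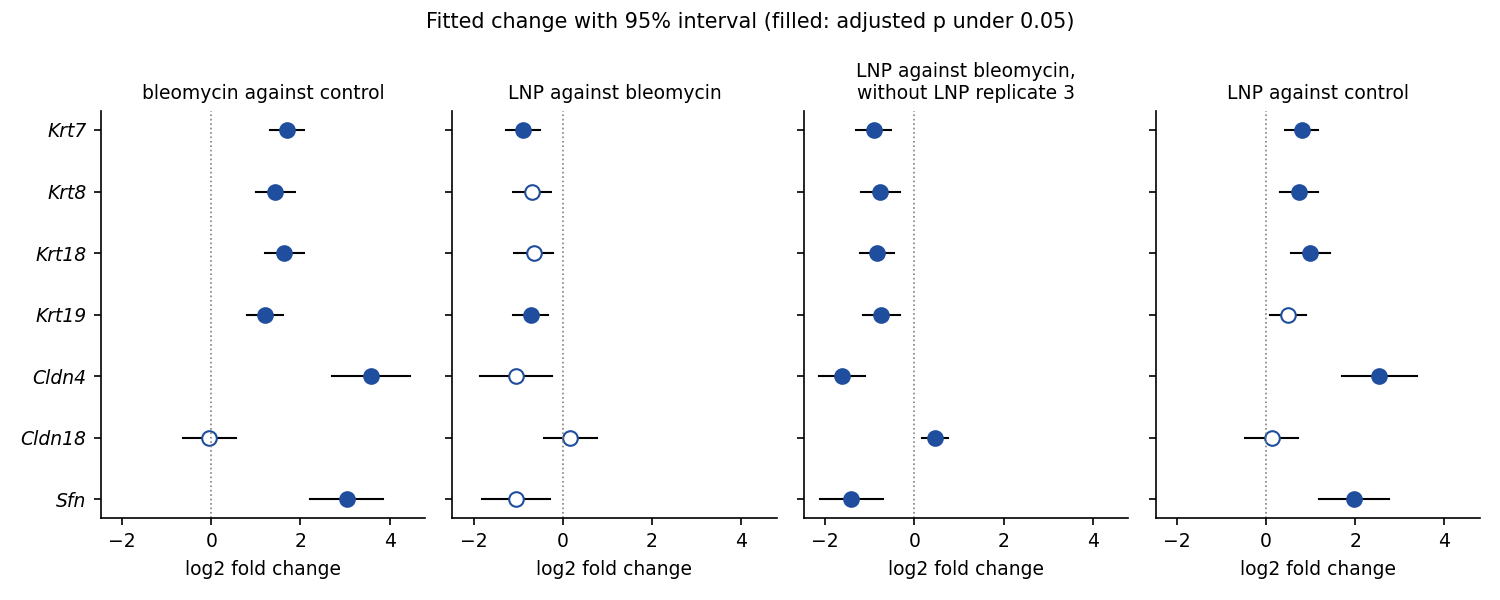
Fitted log2 fold changes with 95% intervals for the 7 genes in 3 comparisons, and for LNP against bleomycin also without LNP replicate 3; filled points passed an adjusted p of 0.05. Of LNP against bleomycin 2 points are filled with all 9 libraries and all 7 without that library.

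The call of a fall in LNP against bleomycin lung rested on single libraries. Without LNP replicate 3, 6 of the 7 genes fell and Cldn18 rose, but the same fit then called 10.7% of all genes lower and 14.0% higher. Without LNP replicate 1, LNP replicate 2, bleomycin replicate 1 or bleomycin replicate 2, 0 of the 7 passed, and 1 passed without bleomycin replicate 3, control replicate 1 or control replicate 3. DESeq2 called 6 of them lower, where it called 5.61% of all genes lower. The log2 fold change of Krt7 in this comparison ran from -0.97 to -0.81 over the fits that left out 1 library. In LNP against control lung 6 of the 7 rose without LNP replicate 3, Cldn18 (log2 fold change 0.45) being added, in a fit that called 6.41% of all genes higher. The count of 5 became 3 without LNP replicate 2, and 2 without control replicate 1 or control replicate 3.

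Krt7, a type II chain, lies in the deposited table on chromosome 15 from 101308924 to 101328194 on the plus strand; the sources used here name no genome build for the coordinates of that table. It had 782, 830 and 854 CPM in LNP libraries, 1690, 1527 and 1360 CPM in bleomycin libraries and 446, 581 and 390 CPM in control libraries. No library of one group reached the range of another. The means were 822 ± 36.8 CPM in LNP, 1526 ± 165 CPM in bleomycin and 472 ± 97.9 CPM in control lung (SD, n = 3 each). The rise after bleomycin was 1.69 ± 0.17 on the log2 scale (SE, adjusted p = 2.23e-04). LNP lung was lower than bleomycin lung by a log2 fold change of -0.89 ± 0.17 (adjusted p = 0.019) and higher than control lung by 0.80 ± 0.17 (adjusted p = 0.018). Of the 9 fits that left out 1 library, the first call held in 5 (adjusted p up to 0.082) and the second in 6 (adjusted p up to 0.085). An lncRNA on the opposite strand, Gm671, overlaps Krt7 and had at most 169 counts in a library.

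Krt8, the type II chain that names the Krt8-high transitional state, occupies bases 101905133 to 101912917 of chromosome 15 (minus strand). It had 457, 530 and 569 CPM in LNP libraries, 976, 821 and 727 CPM in bleomycin libraries and 287, 392 and 253 CPM in control libraries. The groups did not overlap. The rise after bleomycin was 2.71-fold (log2 fold change 1.44 ± 0.19, adjusted p = 7.19e-04). LNP lung differed from bleomycin lung by -0.70 ± 0.19 on the log2 scale (95% interval -1.12 to -0.27, adjusted p = 0.059) and from control lung by 0.74 ± 0.19 (adjusted p = 0.043). Only the difference from control lung was a call. It was lost, at adjusted p-values up to 0.16, in 6 of the 9 fits that left out 1 library. It was also lost with no count filter (0.066) or only the 2 groups compared (0.072). Adding the replicate number to the fit lost this call too. Reads of the pseudogene Krt8-ps, at most 191 counts in a library, and of the antisense lncRNA Gm36026, at most 30, cannot be fully told apart from those of Krt8.

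Krt18, the type I partner of Krt8, occupies bases 101936615 to 101940462 of chromosome 15 (plus strand), with 23698 bases between the starts of the pair. It had 253, 293 and 385 CPM in LNP libraries, 533, 487 and 442 CPM in bleomycin libraries and 142, 194 and 134 CPM in control libraries. The groups did not overlap, and LNP replicate 3 was the library of its group nearest to the bleomycin range. The rise after bleomycin was 3.11-fold (log2 fold change 1.64 ± 0.20, adjusted p = 4.76e-04). LNP lung differed from bleomycin lung by -0.65 ± 0.19 (adjusted p = 0.078), or by -0.83 ± 0.17 (adjusted p = 0.0070) without LNP replicate 3. It was 1.98-fold higher than control lung (log2 fold change 0.99 ± 0.20, adjusted p = 0.015), a call lost without control replicate 1 (adjusted p = 0.074) or control replicate 3 (0.069).

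Krt19, a small type I chain, occupies bases 100031636 to 100036946 of chromosome 11 (minus strand). It had 371, 397 and 404 CPM in LNP libraries, 744, 631 and 558 CPM in bleomycin libraries and 249, 350 and 235 CPM in control libraries. The groups did not overlap, though the lowest LNP and the highest control library were close. The rise after bleomycin was the smallest of the 4 keratins, 2.32-fold (log2 fold change 1.21 ± 0.18, adjusted p = 0.0011). LNP lung was lower than bleomycin lung by -0.72 ± 0.18 (adjusted p = 0.045), and its difference from control lung was 0.49 ± 0.18 within a 95% interval of 0.09 to 0.89 (adjusted p = 0.13). The first call was lost in 7 of the 9 fits that left out 1 library (adjusted p up to 0.18), with no count filter (0.069), with only the 2 groups compared (0.058) and in limma on log2(FPKM + 1) with no filter (0.084). Adding the replicate number to the fit also lost the first call. The difference from control lung did pass in DESeq2 (adjusted p = 0.040), with library-size scaling (0.044), in both filtered limma fits on log2 FPKM (0.036 each) and without control replicate 2 (log2 fold change 0.69, adjusted p = 0.029).

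Ratios between the keratins were compared in each library. Per length, on FPKM (the authors' values, scaled to transcript length and library size), the log2 ratio of Krt7 to Krt19 averaged -0.85 in LNP, -0.68 in bleomycin and -1.16 in control lung. The groups did not overlap in it. The log2 ratio of the partners Krt8 and Krt18 averaged 0.31 in LNP, 0.34 in bleomycin and 0.54 in control lung, with LNP replicate 3 lowest at 0.12 and the control libraries highest. Krt19 over Krt18 averaged -0.01 in LNP, 0.03 in bleomycin and 0.46 in control lung. Each of these ratios had, between bleomycin and control lung, an exact two-sided permutation p of 0.1, the smallest that 3 against 3 libraries can give, and 0.14 after adjustment over 15 such tests, so that no ratio passed. LNP and bleomycin lung overlapped in Krt8 over Krt18 (exact permutation p = 0.8) and in Krt19 over Krt18 (exact permutation p = 0.9).

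Among all keratins these 4 made up most of the mRNA. They held 91.5%, 93.7% and 47.7% of the summed keratin FPKM in LNP libraries, 95.3%, 94.6% and 94.0% in bleomycin libraries and 85.7%, 89.0% and 87.1% in control libraries. In LNP replicate 3 the squamous keratins Krt13 and Krt4 took 25.3% and 19.1% of the keratin FPKM, and neither reached 0.3% in any other library. Of 24 keratins tested, 8 rose and 3 fell after bleomycin, 2 rose and 2 fell in LNP against bleomycin lung, and 8 rose and 0 fell in LNP against control lung. Over all genes 15.2% rose and 18.5% fell after bleomycin. In LNP against bleomycin lung 4.28% of all genes rose and 1.87% fell, and against control lung 4.95% rose and 3.08% fell. Without LNP replicate 3, 26 keratins were tested, of which 3 rose and 6 fell in LNP against bleomycin lung and 7 rose and 2 fell in LNP against control lung. That fit called 14.0% of all genes higher and 10.7% lower in the first of these comparisons and 6.41% higher in the second. The 3 keratins that fell after bleomycin were Krt23 (log2 fold change -2.35, adjusted p = 4.11e-04), Krt79 (-5.00, adjusted p = 0.0017) and Krt222, which was named after its value was seen. Krt23 and the basal keratin Krt5 were the 2 that rose in LNP against bleomycin lung. Krt23 had 18.1, 16.4 and 10.4 CPM in LNP libraries, 2.98, 5.18 and 4.28 CPM in bleomycin libraries and 22.3, 24.3 and 17.0 CPM in control libraries, so its levels ran the other way from those of the 4 keratins.

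**Figure D4:**
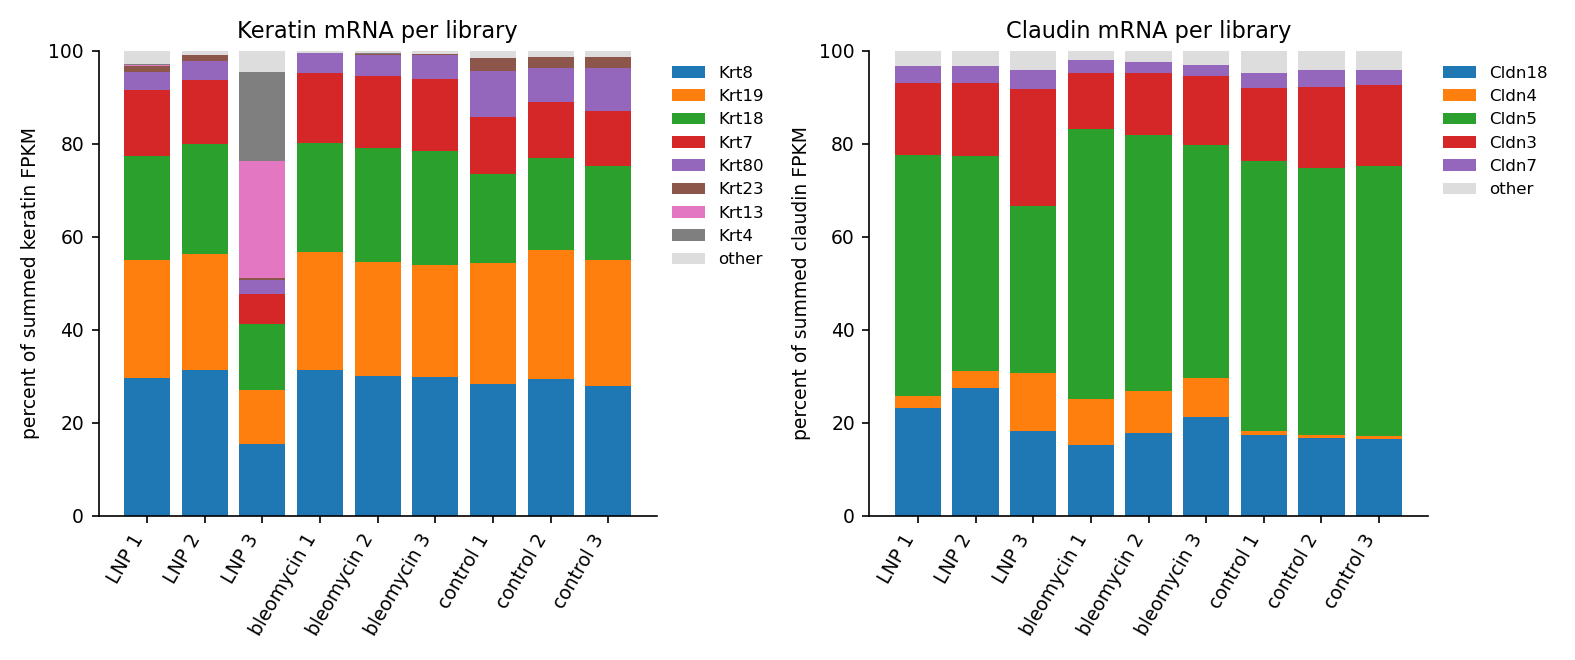
Share of the summed keratin FPKM (left) and claudin FPKM (right) held by single genes in each library, in percent. The 4 simple keratins fill 85.7% to 95.3% of the keratin bar in every library but LNP replicate 3, where Krt13 and Krt4 enter, and Cldn4 fills 8.43% or more of the claudin bar in bleomycin libraries, against 0.71% to 0.72% in control libraries.

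Mesothelium, which also makes these keratins, was followed by 8 markers, none at 0 in any library. Their summed level was 530, 386 and 682 CPM in LNP libraries, 767, 838 and 912 CPM in bleomycin libraries and 403, 551 and 438 CPM in control libraries. After bleomycin 2 of the 8 rose and 3 fell, where 15.2% of all genes rose and 18.5% fell. Of the 8, Msln (mesothelin) had the smallest p (log2 fold change 2.32, adjusted p = 0.0025). In LNP against bleomycin and against control lung 0 of the 8 passed in edgeR, with 2 at an unadjusted p under 0.05 and 1 called by DESeq2 in each. With LNP replicate 3 left out, 2 rose and 2 fell in LNP against bleomycin lung, where 14.0% of all genes rose and 10.7% fell. Within the bleomycin group the marker sum was lowest in replicate 1, where all 7 genes were highest by CPM. The sum was highest in replicate 3, where all 7 were lowest by CPM. By FPKM Cldn18 ran the other way, with 129.9, 132.7 and 134.3 in bleomycin replicates 1, 2 and 3. Msln alone made up most of the sum in this group, with 547, 591 and 641 CPM in replicates 1, 2 and 3. The part of mesothelial RNA in the keratin values was not tested.

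Cldn4, a claudin that is scarce in the resting alveolus, occupies bases 134973973 to 134975788 of chromosome 5 (minus strand). It had 41.6, 50.7 and 115 CPM in LNP libraries, 186, 139 and 106 CPM in bleomycin libraries and 10.9, 14.0 and 11.02 CPM in control libraries. Every bleomycin and LNP library lay above every control library, and LNP replicate 3 alone lay within the bleomycin range. The rise after bleomycin was 12.0-fold (log2 fold change 3.58 ± 0.39, adjusted p = 3.06e-04). LNP lung was 5.79-fold higher than control lung (2.53 ± 0.38, adjusted p = 0.0043), or 3.96-fold higher without LNP replicate 3. Against bleomycin lung the difference was -1.05 ± 0.36 within a 95% interval of -1.85 to -0.25 (adjusted p = 0.11), and -1.63 ± 0.23 without LNP replicate 3 (adjusted p = 9.91e-04).

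Cldn18, an abundant claudin of alveolar cells, occupies bases 99571514 to 99599320 of chromosome 9 (minus strand). It had 906, 939 and 416 CPM in LNP libraries, 694, 667 and 654 CPM in bleomycin libraries and 652, 797 and 626 CPM in control libraries. Bleomycin and control libraries overlapped, LNP replicates 1 and 2 lay above all other libraries and LNP replicate 3 lay below them. The difference of bleomycin from control lung was -0.04 ± 0.27 on the log2 scale (95% interval -0.63 to 0.55, adjusted p = 0.92). LNP lung differed from bleomycin lung by 0.17 (95% interval from -0.43 to 0.76, adjusted p = 0.75) and from control lung by 0.12 (95% interval from -0.47 to 0.72, adjusted p = 0.82). Without LNP replicate 3 these differences were 0.46 ± 0.13 (adjusted p = 0.025) and 0.45 ± 0.13 (adjusted p = 0.048), and both passed. In each comparison this was the only 1 of 18 alternative fits that called Cldn18.

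The 2 claudins were also set against each other. Per length, on FPKM, the log2 ratio of Cldn4 to Cldn18 was -3.15, -2.92 and -0.56 in LNP libraries, -0.61, -0.97 and -1.33 in bleomycin libraries and -4.61, -4.54 and -4.53 in control libraries. LNP replicates 1 and 2 lay between the other groups and LNP replicate 3 lay above the bleomycin libraries. The mean difference of bleomycin from control lung was 3.59 and that of LNP from control lung 2.35, each with an exact two-sided permutation p of 0.1, the smallest possible, and 0.14 after adjustment. LNP and bleomycin lung overlapped, with a mean difference of -1.24 (exact permutation p = 0.4), or -2.06 without LNP replicate 3.

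Of all claudin FPKM, Cldn4 held 2.61%, 3.65% and 12.5% in LNP libraries, 9.99%, 9.10% and 8.43% in bleomycin libraries and 0.71% to 0.72% in control libraries. Cldn18 held 23.1%, 27.6% and 18.3% in LNP libraries, 15.2%, 17.8% and 21.3% in bleomycin libraries and 16.5% to 17.4% in control libraries. The endothelial claudin Cldn5 held the largest share in every library, 35.8% to 58.1%. Of 17 claudins tested, 3 rose and 8 fell after bleomycin, 1 rose and 0 fell in LNP against bleomycin lung, and 3 rose and 1 fell in LNP against control lung. Over all genes 15.2% rose and 18.5% fell after bleomycin. In LNP against bleomycin lung 4.28% of all genes rose and 1.87% fell, and against control lung 4.95% rose and 3.08% fell. With LNP replicate 3 left out, 5 claudins rose and 2 fell in LNP against bleomycin lung, where 14.0% of all genes rose and 10.7% fell. The other 2 that rose after bleomycin were Cldn2, which forms cation pores (log2 fold change 1.95, adjusted p = 0.0073), and Cldn12 (0.48, adjusted p = 0.028). Cldn10 (-2.16, adjusted p = 3.27e-04) and the epithelial Cldn3 (-0.47, adjusted p = 0.038) were among those that fell.

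Sfn occupies bases 133327867 to 133329479 of chromosome 4 (minus strand). It had 104, 130 and 219 CPM in LNP libraries, 422, 303 and 216 CPM in bleomycin libraries and 47.0, 43.0 and 24.9 CPM in control libraries. Bleomycin and LNP libraries all lay above the control libraries, and LNP replicate 3 passed bleomycin replicate 3 by a small margin. The rise after bleomycin was 8.19-fold (log2 fold change 3.03 ± 0.37, adjusted p = 4.69e-04), and LNP lung was 3.94-fold higher than control lung (1.98 ± 0.35, adjusted p = 0.0091). Against bleomycin lung the difference was -1.05 ± 0.34 (95% interval from -1.82 to -0.29, adjusted p = 0.096), and -1.42 ± 0.31 without LNP replicate 3 (adjusted p = 0.0097). The 6 other 14-3-3 genes (Ywhab, Ywhae, Ywhag, Ywhah, Ywhaq and Ywhaz), most of them broadly expressed, gave 0 calls by edgeR in each of the 3 comparisons. After bleomycin 1 of them had an unadjusted p under 0.05 and 1 was called by DESeq2, against 0 by both measures in either LNP comparison, and without LNP replicate 3 the fit called 1 higher and 1 lower after bleomycin. Their median log2 fold change after bleomycin was 0.10. In edgeR 15.2% of all genes rose and 18.5% fell after bleomycin with all 9 libraries, and 22.1% fell without LNP replicate 3.

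Per length, the 7 genes were ordered by mean FPKM in each group. On this scale LNP lung had Krt8 at 252, Krt18 at 205, Krt19 at 201, Cldn18 at 162, Krt7 at 111, Sfn at 89.0 and Cldn4 at 36.2, and among neighbours in this order only the ranges of Sfn and Cldn4 did not overlap. Bleomycin lung had Krt8 at 376, Krt19 at 304, Krt18 at 297, Krt7 at 190, Sfn at 169, Cldn18 at 132 and Cldn4 at 68.8, where the ranges of Krt19 and Krt18, Krt7 and Sfn, and Sfn and Cldn18 overlapped. Control lung had Krt8 at 145, Cldn18 at 142, Krt19 at 137, Krt18 at 99.7, Krt7 at 61.4, Sfn at 21.8 and Cldn4 at 6.03, and the first 3 did not differ beyond their spread.

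The 7 genes were also set against 8 markers shared by all lung epithelium. Of these, Grhl2, an epithelial transcription factor, and Rab25, an epithelial trafficking protein, fell after bleomycin and rose in LNP against bleomycin lung, and the other 6 passed in neither comparison. Over all genes 18.5% fell after bleomycin and 4.28% rose in LNP against bleomycin lung. Between LNP and control lung 0 of the 8 passed in edgeR, with 2 at an unadjusted p under 0.05 and 1 called by DESeq2. The summed marker level was 775, 749 and 504 CPM in LNP libraries, 696, 603 and 535 CPM in bleomycin libraries and 721, 821 and 658 CPM in control libraries. On log2 CPM minus the mean log2 CPM of the 8 markers, Krt8 averaged 3.34 in LNP, 4.26 in bleomycin and 2.50 in control lung. On the same scale Cldn4 averaged 0.29 in LNP, 1.68 in bleomycin and -2.19 in control lung, and Cldn18 averaged 3.80 in LNP, 3.95 in bleomycin and 3.67 in control lung. The subtraction moves all genes of a library by the same amount, and 2 of the 8 markers themselves fell after bleomycin. On this scale all 7 genes were higher in bleomycin than in control lung with no overlap, as were 40.0% of all genes tested, and for 6, all but Cldn18, every LNP library lay below the bleomycin libraries, as for 23.7% of all genes. Each of these differences had an exact two-sided permutation p of 0.1, the smallest possible, and 0.11 after adjustment over 21 tests, and none passed. Cldn18 overlapped between bleomycin and control lung by plain CPM, as did Cldn4 and Sfn between LNP and bleomycin lung, where LNP replicate 3 lay at 1.396 for Cldn4 on the subtracted scale, against 1.402 for the lowest bleomycin library. By plain CPM 25.9% of all genes were higher in bleomycin than in control lung with no overlap, the LNP libraries lay below the bleomycin libraries for 14.5% of genes, and 13.7% were higher in LNP than in control lung.

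Markers of mature lung epithelium fell in several lists. Over all genes tested 15.2% rose and 18.5% fell after bleomycin. In LNP against bleomycin lung 4.28% rose and 1.87% fell, and in LNP against control lung 4.95% rose and 3.08% fell. With LNP replicate 3 left out, 14.0% rose and 10.7% fell in LNP against bleomycin lung, and 6.41% rose in LNP against control lung. In that fit 22.1% of all genes fell after bleomycin. Of 10 alveolar type 2 markers 8 fell after bleomycin (median log2 fold change -1.74), including the surfactant gene Sftpc (log2 fold change -1.79, adjusted p = 0.0064), and 0 passed in LNP against bleomycin lung (9 at an unadjusted p under 0.05 and 4 called by DESeq2), or 9 rose without LNP replicate 3. Between LNP and control lung 0 passed (2 at an unadjusted p under 0.05, 1 called by DESeq2), or 1 fell without LNP replicate 3. Of 12 alveolar type 1 markers 5 rose after bleomycin, among them Pdpn, podoplanin (1.04, adjusted p = 0.0065), and 1 fell, with a median of 0.35, while 1 fell in LNP against bleomycin and 1 rose in LNP against control lung. Without LNP replicate 3, 6 of these type 1 markers rose and 2 fell after bleomycin. In the same fit 2 rose (Rtkn2 and Igfbp2) and 1 fell in LNP against bleomycin lung, and 4 rose in LNP against control lung. All 10 ciliated cell markers fell after bleomycin (median -1.64), 7 of them rose in LNP against bleomycin lung (10 without LNP replicate 3) and 2 fell in LNP against control lung. Of 8 club and secretory cell markers 7 fell after bleomycin (median -2.44), 2 rose in LNP against bleomycin lung (4 without LNP replicate 3) and 5 fell in LNP against control lung. Of 7 basal cell markers 0 passed after bleomycin (0 also at an unadjusted p under 0.05 and in DESeq2) and 2, Aqp3 and Krt5, rose in LNP against bleomycin lung. The 7 basal markers summed to 41.3, 13.2 and 163 CPM in LNP libraries, against 4.28 to 13.5 CPM in bleomycin libraries. In LNP against control lung 2 basal markers rose, Krt14 and Krt5, or 1 without LNP replicate 3. Of 6 squamous markers tested 3 rose after bleomycin (Krt6a, Ecm1 and Ivl). Krt6a and Ivl were scarce, averaging 0.049 and 0.53 CPM in control and 1.07 and 3.22 CPM in bleomycin lung. Ecm1 averaged 235.5 CPM in control and 537.3 CPM in bleomycin lung. Of the 6, 1 rose in LNP against bleomycin lung (Dmkn) and 2 rose in LNP against control lung (Krt6a and Krt4). With LNP replicate 3 left out, 4 squamous markers rose and 1 fell (Dmkn) after bleomycin. In LNP against bleomycin lung 1 squamous marker then rose (Dmkn) and 2 fell (Ecm1 and Ivl). Of 8 skeletal muscle markers tested 0 passed in any of the 3 comparisons in edgeR or DESeq2, with 8 at an unadjusted p under 0.05 in each LNP comparison and 0 after bleomycin. The fit without LNP replicate 3 called 1 muscle marker higher and 2 lower both after bleomycin and in LNP against bleomycin lung, 3 lower in LNP against control lung, and 1 basal marker, Aqp3, lower after bleomycin.

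Of the 23 transitional state genes, 9 fell and 0 rose in LNP against bleomycin lung, where 1.87% of all genes fell and 4.28% rose. The median of the 23 was -0.75 against 0.04 over all genes. Among the smallest p-values were those of Anxa1 (log2 fold change -0.78, adjusted p = 0.017), Tnfrsf12a (-1.66, adjusted p = 0.019) and F3, tissue factor (-1.84, adjusted p = 0.021). Without LNP replicate 3, 14 of the 23 fell and 1 rose, in a fit that called 10.7% of all genes lower and 14.0% higher. In LNP against control lung 10 of the 23 rose and 0 fell, where 4.95% of all genes rose and 3.08% fell. Among the 10 was Sprr1a, a cornified envelope precursor (log2 fold change 4.30, adjusted p = 0.0020). Sprr1a had 16.2, 30.1 and 55.4 CPM in LNP libraries, 29.7, 24.3 and 18.0 CPM in bleomycin libraries and 1.78, 2.54 and 0.86 CPM in control libraries. Its LNP and bleomycin libraries overlapped and both lay above control.

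Of 12 partners of claudins at tight junctions, 3 rose after bleomycin (Pard6b, a polarity protein, Cgn, cingulin, and Marveld3) and 1 fell. Over all genes 15.2% rose and 18.5% fell, and the median log2 fold change of the 12 partners was -0.09. The 1 partner that fell was Tjp3, a scaffold protein (-1.83 ± 0.25, adjusted p = 7.68e-04). It had 42.0, 31.0 and 23.3 CPM in LNP libraries, 9.65, 12.3 and 13.5 CPM in bleomycin libraries and 42.5, 51.2 and 32.5 CPM in control libraries. In LNP against bleomycin lung Tjp3 rose (1.44 ± 0.25, adjusted p = 0.015), and Pard6b (-0.96, adjusted p = 0.012) and Cgn (-0.61, adjusted p = 0.043) fell. Of all genes 4.28% rose and 1.87% fell in that comparison. With LNP replicate 3 left out, 4 partners fell and 1 rose in LNP against bleomycin lung, where 10.7% of all genes fell and 14.0% rose. After bleomycin the same fit called 3 partners higher and 4 lower (Tjp3, Ocln, Tjp1 and Marveld2), where 22.1% of all genes fell. Between LNP and control lung 0 of 12 passed in edgeR or DESeq2, with 3 at an unadjusted p under 0.05, or 1 fell without LNP replicate 3. Of 9 desmosome genes, whose products anchor keratin filaments at the membrane, 2 rose (Pkp3 and Ppl) and 2 fell (Jup and Dsg2) after bleomycin. Beside these counts stand the same 15.2% and 18.5% of all genes. Ppl, periplakin, was the 1 that fell in LNP against bleomycin lung (-1.10, adjusted p = 0.038), or 2 without LNP replicate 3. Against control lung 0 of 9 passed in edgeR, with 2 at an unadjusted p under 0.05 and 2 called by DESeq2, or 1 fell without LNP replicate 3.

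Genes with the most similar course, 3 for each gene, were found by the root mean square difference of centred log2 CPM over the 9 libraries. Krt7 was nearest to Krt8 (0.12), S100a11 and Alox5ap, and Krt8 to S100a11 (0.11), Cd63 and Gmds. Krt18 was nearest to Col4a2 (0.09), Cxcl16 and Tnfaip2, and Krt19 to Gprc5a (0.06), Eif4a1 and Itga3. Among those nearest to Cldn4 were S100a14 (0.16) and Col5a3 (0.23). Cldn18 was nearest to Fam174b (0.09), Sema3b and Cyb561d2, and Sfn to the Fc receptor gene Fcgr3 (0.23), Klhdc8a and the chemokine receptor gene Ccr1. Several of these genes are made chiefly by fibroblasts or leukocytes, so a similar course over 9 libraries of whole lung does not place 2 genes in the same cells.

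At the level of transcripts, Krt8, Krt18, Cldn4 and Sfn had 1 transcript each in the deposited table, and 1 transcript of Krt19 held over 99% of its counts. ENSMUST00000035048, which in the GENCODE annotation begins at the Cldn18 start shown above, held 98.1% of the Cldn18 counts, and ENSMUST00000112882 held 1.08%. Krt7 counts lay mostly on ENSMUST00000068904 (81.5%) and ENSMUST00000131069 (17.7%), the second of which GENCODE lists as a retained intron. The share of the retained intron transcript was 21.0%, 14.6% and 31.1% in LNP libraries, 13.8%, 16.8% and 11.05% in bleomycin libraries and 20.8%, 17.1% and 30.6% in control libraries. Bleomycin libraries lay below the control libraries without overlap (exact two-sided permutation p = 0.1, the smallest possible, and 0.45 after adjustment over 9 tests), and LNP libraries overlapped both. Tested over 46941 transcripts with edgeR, the main transcripts of Krt7, Krt8, Krt18, Krt19, Cldn4 and Sfn rose after bleomycin, where 3.53% of all transcripts rose. In LNP against bleomycin lung 0 of them passed in edgeR, with 6 at an unadjusted p under 0.05 and 6 called by DESeq2. Of all transcripts 0.049% fell there in edgeR and 3.43% in DESeq2. In LNP against control lung 1, that of Cldn4 (log2 fold change 2.57, adjusted p = 0.041), rose in edgeR, with 6 at an unadjusted p under 0.05 and 5 called by DESeq2, where 0.505% of all transcripts rose in edgeR and 5.37% in DESeq2. The edgeR call was lost in 7 of the 9 fits that left out 1 library (adjusted p up to 0.18).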

How the data were processed

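Poly(A) RNA of 9 whole-lung samples was sequenced. Counts, whole numbers for genes and for transcripts, and gene FPKM were deposited by the authors, per the file headers. Tools named in the submitters' processing notes are fastp, StringTie and edgeR, without versions. The sources used here name no aligner or genome build and do not say whether counting used the strand. In the deposited counts 32651 of 32671 genes equalled the sum of their transcripts. Only 524 of 30733 genes shared with a GRCm38 annotation lay at the same position, so gene coordinates were left as deposited and promoter coordinates are from RefSeq on GRCm38.p6. Replicates differed beyond sampling noise in every group (smallest chi-square over its degrees of freedom 30.2).

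The 9 libraries were fitted together on the deposited counts with edgeR 4.0.16 (R 4.3.3), using filterByExpr, TMM scaling and the quasi-likelihood F test. A gene passed at an adjusted p under 0.05 (Benjamini-Hochberg over 20794 genes). CPM used TMM-scaled library sizes. Log2 CPM, with a prior count of 2, was computed from the deposited counts. Ratios, isoform shares and levels over epithelial markers were compared by exact permutation tests (SciPy 1.17.1). The fits were tested on simulated counts. Alternatives were DESeq2 1.42.0, other scalings, no count filter, 2-group fits, a replicate block, limma 3.58.1 on log2(FPKM + 1) and log2(FPKM + 0.1), and leaving out each library. The 7 genes and all lists were chosen with earlier results of these data known. Named genes are the 7 genes, up to 4 called genes of the smallest p per list and comparison, keratins and claudins that averaged 5 CPM or more in a group, the 3 genes most alike, and transcripts with at least 5% of a gene's counts; others are marked, or complete a count of 5 or fewer. Some genes that this rule names are not reported here.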

Additional observations from a re-analysis of the deposited data

How the results depend on the processing

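The bleomycin against control calls of the 6 genes held under all 18 alternatives. Genes called in LNP against bleomycin lung numbered 1280, against 3184 in DESeq2, 794 with no count filter, 318 with only the 2 groups compared, 539 in limma on log2(FPKM + 1) with no filter, and 102 (without bleomycin replicate 2) to 5284 (without LNP replicate 3) when single libraries were left out, moving by over 1.5 times for every library but control replicate 2. Members lower there numbered 2, against 6 in DESeq2, 1 with no count filter, 1 with only the 2 groups, 1 in limma with no filter, and 0 to 6 with single libraries left out, and members higher 0 to 1. Genes called in LNP against control lung numbered 1671, against 3143 in DESeq2, 1010 with only the 2 groups, and 717 (without control replicate 1) to 2332 with single libraries left out, with 781, 1050 and 1081 without control replicate 3, bleomycin replicate 2 and LNP replicate 2, and members higher 5, against 2 to 6. For bleomycin against control the 7002 calls ran from 4375 (without bleomycin replicate 2, or 4430 without bleomycin replicate 1) to 9102. Transcripts called were 6 in DESeq2 for each LNP comparison and 0 to 1 with single libraries left out.

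Replicate numbers did not pair the libraries: deviations of same-numbered libraries correlated at -0.02 to 0.04. With the replicate block, 432 genes and 1 member passed in LNP against bleomycin lung, Krt19 and the rise of Krt8 over control being lost (adjusted p = 0.080 and 0.069 in edgeR), and 0 transcripts in LNP against control lung.

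Values near 0 changed sign. Cldn18 after bleomycin was 0.0029 in DESeq2 and with relative log expression scaling and -0.11 to 0.0692 with single libraries left out. Its leave-one-out range was -0.0216 to 0.46 for LNP against bleomycin and -0.0654 to 0.45 for LNP against control, and over pan-epithelial markers -0.31 to 0.12 and -0.0303 to 0.40. ENSMUST00000035048 ran from -0.0616 to 0.12 after bleomycin and from -9.94e-05 to 0.50 in LNP against bleomycin lung, where its share moved by -0.66 to 0.22 points. ENSMUST00000131069 ran from -0.53 to 0.0021 there. In LNP against control lung its share ran from -5.01 to 3.30 points and that of ENSMUST00000068904 from -2.41 to 5.90. The Krt8 to Krt18 ratio in LNP against bleomycin ran from -0.0734 to 0.0725, and Krt19 to Krt18 from -0.14 to 0.10. The cause was not tested.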

Other observations

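Keratins of basal and stratified epithelium were also somewhat higher in 1 LNP library other than replicate 3. Krt5, a type II chain of basal cells, had 9.06, 1.93 and 58.6 CPM in LNP libraries, 0.49, 1.04 and 1.57 CPM in bleomycin libraries and 1.81, 1.77 and 0.93 CPM in control libraries. Its partner Krt14 had 7.29, 1.13 and 40.2 CPM in LNP libraries, 1.20, 1.65 and 1.42 CPM in bleomycin libraries and 0.86, 0.94 and 0.27 CPM in control libraries. LNP replicate 2 lay close to the control libraries for both.

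Krt80, a type II keratin with 194, 225 and 370 CPM in LNP libraries, 420, 402 and 401 CPM in bleomycin libraries and 331, 320 and 272 CPM in control libraries, gave no call in edgeR's quasi-likelihood test with all 9 libraries (LNP against bleomycin log2 fold change -0.63, adjusted p = 0.11). Without LNP replicate 3 the same difference was -0.96 (adjusted p = 7.11e-04), and LNP lung was also lower than control lung (-0.52, adjusted p = 0.027).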
